A study of Mus musculus with 9 samples.

Results

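Genes that make, move or oxidise glycerol and glycerol 3-phosphate were followed in the brown fat of adult mice: Gk, Aqp7, Pck1, Gpd1, Gpd2 and Gpd1l. They were chosen by gene symbol for these roles, and 6 of 6 were found among the 55416 Ensembl gene identifiers of the deposited count table. The study injected an AAV8 vector (an adeno-associated virus) into the interscapular brown fat of Cas9-expressing C57BL/6J mice labelled as 8 to 10 weeks of age. In 5 samples the vector carried the control guide RNA (AAV8-Control) and in 4 it carried a guide RNA against Ucp1 (AAV8-UCP1), the uncoupling protein through which brown fat mitochondria release energy as heat. All samples shared the Cas9 background, the injection, and 14 days of housing at 22 °C, and the labels used here do not name the promoter that drives Cas9.

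The 9 columns of the table are named by a number and the tissue. The labels hold 0 of those numbers, so no library could be given a guide. The libraries are named A to I here, in the order of the table, and form 1 tissue group of 9 in which both guides are mixed. No comparison between the guides was made. Each library's value is given with the lowest, median and highest of the 9, and no p-value was computed.

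Brown adipocytes burn fatty acids taken from stored triglyceride, and each triglyceride that is broken down also yields glycerol. Glycerol can leave the cell through Aqp7, a water and glycerol channel of the fat cell membrane, or be phosphorylated by Gk, the glycerol kinase, to glycerol 3-phosphate, the backbone for new triglyceride. The same backbone is also made from dihydroxyacetone phosphate by Gpd1, the cytosolic NAD-linked glycerol-3-phosphate dehydrogenase. That precursor comes from glucose by glycolysis or, without glucose, by glyceroneogenesis, in which Pck1, the cytosolic phosphoenolpyruvate carboxykinase, takes the controlling step. Gpd1 and Gpd2, the FAD-linked enzyme on the outer face of the inner mitochondrial membrane, together form the glycerol-phosphate shuttle, which passes electrons from cytosolic NADH to the respiratory chain and is known for its high activity in brown fat. Gpd1l is a cytosolic relative of Gpd1. In the GENCODE M21 annotation Gk (ENSMUSG00000025059) lies on chromosome X, Aqp7 (ENSMUSG00000028427) on chromosome 4, Pck1 (ENSMUSG00000027513) and Gpd2 (ENSMUSG00000026827) on chromosome 2, Gpd1 (ENSMUSG00000023019) on chromosome 15 and Gpd1l (ENSMUSG00000050627) on chromosome 9.

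The promoters of Gk, Gpd1l and Pck1 are shown because Gpd1l with Gk and Gpd1l with Pck1 were the closest pairs after Gpd1 with Gpd2. Their rho was 0.80 and 0.77 in CPM, but 0.37 and 0.65 under the TMM scaling explained further on. Gpd1l had the fewest counts of the 6, and part of its order over the libraries is uncertain, as given below. Gk with Pck1 was at 0.57 in CPM. In the closest pair (rho 0.90), Gpd1 had no entry and the Gpd2 windows are not printed. The windows come from RefSeq on the build GRCm38.p6 and span 250 bases before to 50 bases after an annotated start. An entry was found for 5 of the 6 genes, and they were searched on both strands for TGACG (the half-site of the cAMP response element), CACGTG (an E-box) and AGGTCA (a nuclear receptor half-site), whose matches are in capitals.
Gk (chrX:85776770-85777069, minus strand): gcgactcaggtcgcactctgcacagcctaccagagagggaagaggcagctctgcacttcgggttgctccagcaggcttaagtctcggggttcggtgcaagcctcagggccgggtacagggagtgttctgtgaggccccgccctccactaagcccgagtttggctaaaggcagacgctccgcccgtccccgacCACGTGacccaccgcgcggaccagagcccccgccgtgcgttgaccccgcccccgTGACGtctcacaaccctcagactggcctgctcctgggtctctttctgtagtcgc
Gpd1l (chr9:114933938-114934237, minus strand): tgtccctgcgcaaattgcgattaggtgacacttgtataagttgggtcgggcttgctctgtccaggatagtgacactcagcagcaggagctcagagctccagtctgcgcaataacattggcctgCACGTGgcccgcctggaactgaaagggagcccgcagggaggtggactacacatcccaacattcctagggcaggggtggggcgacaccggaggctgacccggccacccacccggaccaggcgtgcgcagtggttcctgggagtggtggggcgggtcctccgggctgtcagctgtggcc
Pck1 (chr2:173152823-173153122, plus strand): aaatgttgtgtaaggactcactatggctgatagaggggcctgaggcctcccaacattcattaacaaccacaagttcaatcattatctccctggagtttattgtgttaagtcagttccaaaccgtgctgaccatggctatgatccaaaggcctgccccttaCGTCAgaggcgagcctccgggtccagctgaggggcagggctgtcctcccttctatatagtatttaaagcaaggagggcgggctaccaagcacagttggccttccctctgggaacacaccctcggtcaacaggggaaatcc

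The windows are printed in the direction of transcription. The Pck1 window held TGACG on the strand opposite to the one printed, where the printed letters read CGTCA from position -90 relative to the start. The Gk window held TGACG at position -4 and CACGTG at position -58, and the Gpd1l window held CACGTG at position -127. Of 32851 RefSeq promoter windows of 300 bases, 20.8% held TGACG, 7.15% held CACGTG and 16.3% held AGGTCA, so each of these short strings is also present in many other genes. AGGTCA was found in neither Gk, Gpd1l nor Pck1, but it occurred in both annotated Aqp7 windows, and neither Gpd2 window held any of the 3 strings. These matches describe the letters of the windows and are not evidence of binding.

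The libraries held 15460829 to 17909534 counts, and levels are counts per 1000000 counts of the library (CPM). Mitochondrially encoded genes took 33.8% of the counts in library A, 31.5% in B, 31.8% in C, 33.2% in D, 33.9% in E, 25.8% in F, 26.5% in G, 24.9% in H and 22.3% in I, with no library between 26.5% and 31.5%. The brown adipocyte markers Ucp1, Cidea, Dio2, Elovl3, Cox7a1, Cox8b and Ppargc1a were detected in all 9 libraries, with a median of 1461 CPM for Cidea. Skeletal muscle genes were also present: the 9 muscle markers summed to 230 CPM in library B, 1147 CPM at the median and 4316 CPM in library E. The macrophage, white adipocyte and hepatocyte lists had median sums of 37.2, 65.5 and 7.46 CPM, the endothelial list 385 CPM, the fibroblast list 161 CPM and the erythrocyte list 271 CPM. The pan-adipocyte list (Adipoq, Plin1, Fabp4 and Pparg) summed to 5301 to 7296 CPM. In whole tissue, fewer cells of a type and less RNA per cell cannot be told apart.

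Gpd1, the cytosolic enzyme of the shuttle, had the most counts of the 6 genes and took 0.979% to 1.88% of all counts. Its level was 9945 CPM in library A, 11586 in B, 10703 in C, 11412 in D, 9793 in E, 13570 in F, 12884 in G, 16351 in H and 18792 in I. Libraries I and H were the highest, and A, C and E were the lowest. The highest library was 1.92 times the lowest, and the counting error was at most 0.504% of any of these values (from the centre to the edge of the exact 95% Poisson interval), so the spread between libraries was far larger than counting error. Libraries E and I, the ends of the Gpd1 range, were also the ends of the range of the mitochondrial share of counts. With mitochondrially encoded genes and Ucp1 left out of the total, the Gpd1 range was 1.62-fold. The order of the mitochondrial share was close to the reverse of the order of Gpd1 (rho -0.98 over the 9 libraries, a description, since the share is part of the total that CPM is divided by). It was -0.87 for Gpd2, -0.80 for Gk, -0.58 for Gpd1l, -0.52 for Pck1 and -0.18 for Aqp7. The part of the mitochondrial share in these levels was not tested.

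Gpd2, the mitochondrial enzyme of the shuttle, stood at 909 CPM in library A, 911 in B, 993 in C, 1193 in D, 877 in E, 1277 in F, 1117 in G, 1383 in H and 1342 in I. H, I and F were the highest libraries and E, A and B the lowest, with a 1.58-fold range (1.38-fold with mitochondrially encoded genes and Ucp1 left out of the total) and a counting error of at most 1.69%. Gpd1 and Gpd2 were ordered alike over the 9 libraries (Spearman rho 0.90, Pearson r 0.87 on log2(CPM + 1)), the closest agreement of the 15 pairs of genes.

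Because a ratio of 2 genes in the same library does not depend on the library's total, the balance within the shuttle was also read as the ratio of Gpd1 to Gpd2 counts. It was 10.9 in library A, 12.7 in B, 10.8 in C, 9.57 in D, 11.2 in E, 10.6 in F, 11.5 in G, 11.8 in H and 14.0 in I. Its range was 1.46-fold. Library I, highest for Gpd1, also had the highest ratio, and library D had the lowest. These are ratios of counts, not of molecules, since the transcripts differ in length.

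Gpd1l had the fewest counts of the 6. Its level was 35.5 CPM in library A, 31.1 in B, 38.8 in C, 35.3 in D, 31.0 in E, 35.6 in F, 40.6 in G, 35.7 in H and 37.5 in I. Its 1.31-fold range was the narrowest of the 6 (1.25-fold with mitochondrially encoded genes and Ucp1 left out of the total). In CPM, 92.9% of all genes with a mean of at least 1 CPM, genes with fewer counts included, had a wider one. The counting error reached 9.06% of a value for this gene, so neighbouring libraries cannot be told apart by it. The ratio of Gpd1 to Gpd1l counts ran from 276 in library C to 501 in library I, with a median of 324.

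Gk, the kinase that returns free glycerol to triglyceride synthesis, varied most. Its level was 254 CPM in library A, 210 in B, 322 in C, 155 in D, 159 in E, 295 in F, 343 in G, 456 in H and 378 in I. Library H was the highest at 2.95 times library D, while D and E lay close together at the bottom. With mitochondrially encoded genes and Ucp1 left out of the total, the range was 2.61-fold. The counting error was at most 3.98%. Gk lies on the X chromosome, and Xist, the RNA of the inactive X, was present in all 9 libraries at 237 to 318 CPM, while the Y-linked genes Ddx3y, Kdm5d and Eif2s3y had 0 counts over all libraries.

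Pck1, second to Gpd1 in counts, stood at 4175 CPM in library A, 2750 in B, 4192 in C, 2975 in D, 2954 in E, 5022 in F, 4624 in G, 3150 in H and 4602 in I. B, E, D and H were the lowest libraries and F, G and I the highest. The range was 1.83-fold (1.68-fold with mitochondrially encoded genes and Ucp1 left out of the total), with a counting error of at most 0.931%. Library H was thus the highest library for Gk and among the 4 lowest for Pck1.

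The ratio of Gk to Pck1 counts sets the kinase that recycles glycerol beside the controlling enzyme of glyceroneogenesis. It was 0.0608 in library A, 0.0764 in B, 0.0768 in C, 0.0520 in D, 0.0537 in E, 0.0587 in F, 0.0741 in G, 0.145 in H and 0.0822 in I. Library H stood apart from the other 8, which stayed between 0.0520 and 0.0822.

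Aqp7, the glycerol channel, stood at 78.5 CPM in A, 76.3 in B, 66.3 in C, 76.5 in D, 88.7 in E, 89.7 in F, 91.7 in G, 67.0 in H and 89.0 in I. E, F, G and I were the highest and C and H the lowest, with a 1.38-fold range and a counting error of at most 5.98%. With mitochondrially encoded genes and Ucp1 left out of the total, its range was 1.51-fold, wider than the 1.38-fold of Gpd2 there. The ratio of Aqp7 to Gk counts, the exit route beside the recycling route, ran from 0.147 in library H to 0.559 in library E, a 3.80-fold range that followed mainly the wide range of Gk.

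**Figure D1:**
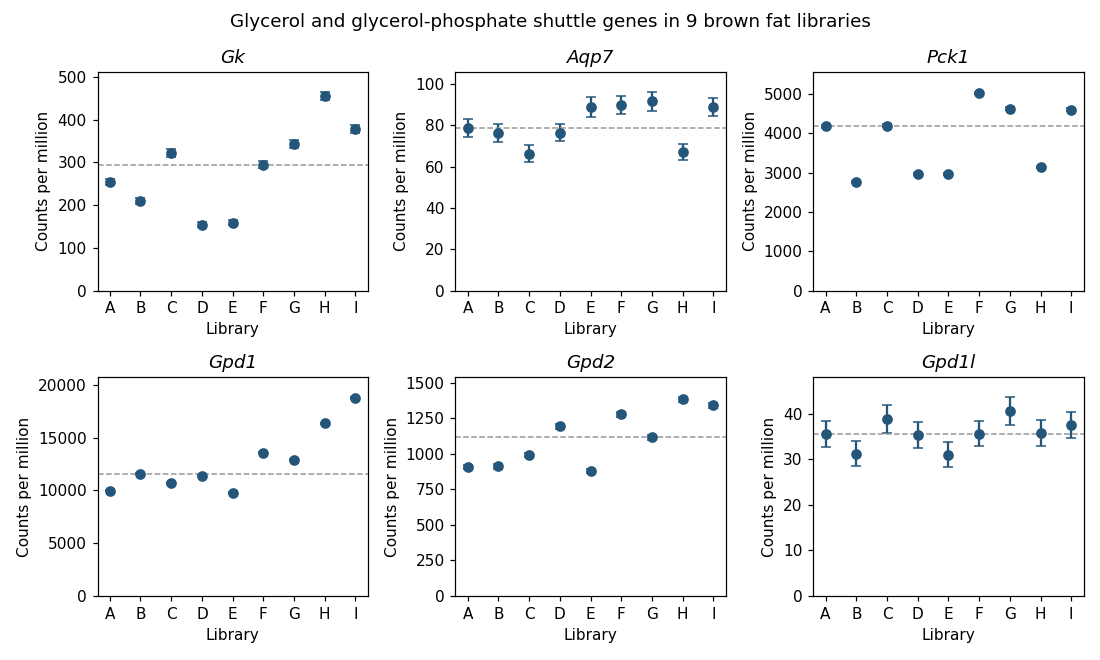
Level of each gene in CPM (linear axis from 0) in libraries A to I. Points are single libraries, bars their exact 95% Poisson intervals (counting error only) and the dashed line the median. Gk spans 155 to 456 CPM, while Gpd1l stays between 31.0 and 40.6 CPM.

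**Figure D2:**
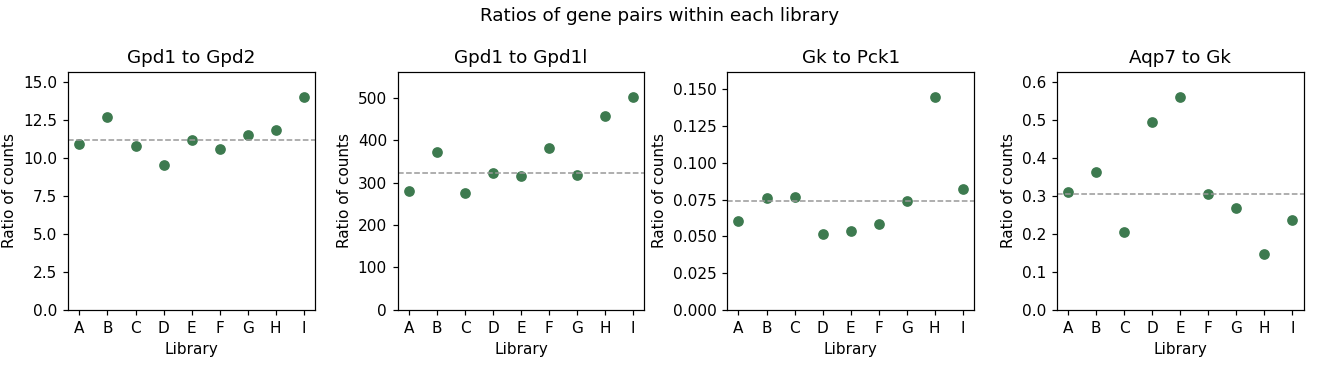
Ratio of counts of 4 gene pairs in libraries A to I (linear axes from 0), with the dashed line at the median. Gpd1 to Gpd2 stays between 9.57 and 14.0, and Gk to Pck1 reaches 0.145 in library H.

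Only 1 of the 6 genes, Gk, had a highest library at least 2 times its lowest, against 32.3% of the 12259 genes with a mean of at least 1 CPM (the 6 included, Ucp1 left out). The median range of the 6 was 1.70-fold, and over all these genes it was also 1.70-fold. A wider range than that of Gk was found in 13.0% of genes, and a wider range than that of Aqp7 in 85.1%. These genes were not matched to the 6 in counts, and the 6 had at least 479 counts in every library. Counting error is larger for genes with fewer counts and widens their range. The shares above therefore do not compare variation beyond counting error. Library E, with the most muscle RNA, was the lowest library for Gpd1, Gpd2 and Gpd1l. For Gpd1l it could not be told apart from library B, with the least muscle RNA (31.0 and 31.1 CPM). Over the 9 libraries the rho with the summed muscle markers was -0.67 for Gpd1 and -0.53 for Gpd2, but 0.10 for Gpd1l, 0.15 for Aqp7, 0.18 for Pck1 and -0.18 for Gk. The part of muscle RNA in these values was not tested.

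To compare levels between genes, CPM was divided by the summed length of each gene's annotated exons in GENCODE M21. The order of the median levels per kilobase was Gpd1 at 3913 CPM per kilobase, Pck1 at 1218, Gpd2 at 171, Gk at 38.1, Aqp7 at 27.8 and Gpd1l at 7.01. The ranges of neighbours in this order did not overlap over the 9 libraries, except those of Gk (up to 58.8) and Aqp7 (23.4 to 32.4). Per kilobase Aqp7 was above Gk in 2 libraries, D and E, and below it in the other 7. In library B, 1 of those 7, the ratio was 0.994, a difference within the counting error of 5.63% for Aqp7 and 3.38% for Gk. Which transcripts of each gene were expressed was not examined, and the order of these 2 genes depends on the lengths used. Gpd1 and Pck1 thus led the order, and Gk, the kinase that uses free glycerol, came far below them at the level of RNA.

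Opposite-strand genes overlap part of the span of Gpd1, Gpd2 and Gk in GENCODE M21. No source used here gives the strand setting of the counting, so reads of such partners cannot be told apart from their host's. The counted levels of the partners were low: Gm16537, opposite Gpd1, had at most 7.37 CPM, A930012O16Rik, opposite Gpd2, at most 3.33 CPM, and Gm13535, Gm14767 and Gm14764 were at 0. These levels do not show how reads of a shared stretch were assigned, or whether they were left out.

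Among the 6 genes, 15 of 15 pairs had a Spearman rho above 0 in CPM, with a median of 0.50. The share above 0 among pairs of all genes was not computed, so this count has no background. The libraries lie on both sides of a gap in Ucp1, given below, and these correlations are descriptions with no p-value. After Gpd1 and Gpd2, the closest pairs were Gk with Gpd1l (rho 0.80, Pearson r 0.66), Pck1 with Gpd1l (0.77 and 0.74) and Gk with Gpd1 (0.72 and 0.71). Part of the Gpd1l order is set by counting error. Its levels in libraries A, D, F and H lay between 35.3 and 35.7 CPM, and those in B and E were 31.1 and 31.0 CPM. Aqp7 stood aside: it was nearly unrelated in order to Gk (rho 0.05), Gpd2 (0.05) and Gpd1l (0.15), and closest to Pck1 (0.57). All genes of a library share its total, which raises or lowers them together in CPM. With edgeR's TMM scaling (a correction for a few genes taking a large share of counts), Gpd1 with Gpd2 and Pck1 with Gpd1l moved little, to 0.88 and 0.65, but Gk with Gpd1l was 0.37, Gpd1 with Gpd1l 0.12 (from 0.50), and Gk with Aqp7 -0.37. Aqp7 was then also below 0 with Gpd2 (-0.28), Gpd1l (-0.05) and Gpd1 (-0.02), and its rho with Pck1 was 0.27.

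**Figure D3:**
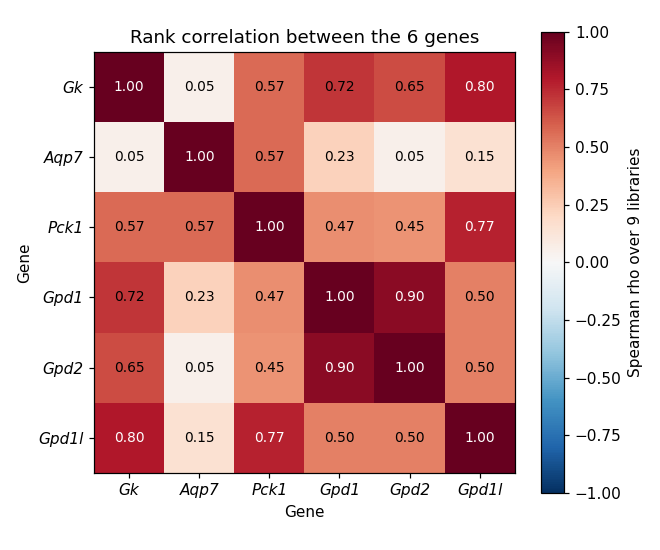
Spearman rho over 9 libraries for every pair of the 6 genes, from blue (-1) to red (1). Gpd1 and Gpd2 share the deepest colour off the diagonal at 0.90, and the Aqp7 row is pale, with 0.05 against Gk and Gpd2.

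Ucp1 itself stood at 3848 CPM in library A, 4620 in B, 3937 in C, 2704 in D, 3652 in E, 396 in F, 606 in G, 445 in H and 459 in I. These values lie on both sides of a wide gap, and neither side holds the 6 libraries that a correlation within it would need. A relation with Ucp1 therefore could not be tested, and the rank correlations over all 9 libraries are descriptions with no p-value. They were -0.78 for Gpd2, -0.70 for Gpd1, -0.60 for Pck1, -0.50 for Gk, -0.50 for Aqp7 and -0.33 for Gpd1l. The corresponding Pearson r on log2(CPM + 1) was -0.87 for Gpd2, -0.85 for Gpd1, -0.70 for Gk, -0.54 for Pck1, -0.48 for Gpd1l and -0.34 for Aqp7. Other measures moved with Ucp1 too. The libraries with the 5 highest Ucp1 levels, A to E, had the 5 highest mitochondrial shares. Brown adipocyte markers other than Ucp1 went both ways in CPM, 3 of 6 below 0, from -0.67 for Elovl3 to 0.57 for Cox8b. The adipocyte markers were below 0 for 3 of 4, but Adipoq was at 0.63. The hepatocyte markers were below 0 for 2 of 2, and the muscle markers above 0 for 9 of 9, with a median rho of 0.15. The white adipocyte, fibroblast and erythrocyte lists held values on both sides of 0. The endothelial markers were above 0 for 3 of 3 (rho 0.67 for Pecam1, 0.77 for Cdh5 and 0.70 for Kdr), with a sum of 326 to 510 CPM over the libraries. The macrophage markers were below 0 for 4 of 4 in CPM, with a sum of 26.4 to 76.3 CPM. Their rho was -0.73 for Cd68, -0.42 for Adgre1, -0.28 for Csf1r and -0.13 for Lyz2, which had the most counts of the 4. With mitochondrially encoded genes and Ucp1 left out of the total, 2 of 4 were below 0. Of all genes, 56.2% were below 0 in CPM, and 32.5% of those with a symbol were under that total. The part of these measures in the values of the 6 genes was not tested.

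In CPM 6 of 6 genes had a rho below 0 with Ucp1 (5 of 6 with mitochondrially encoded genes and Ucp1 left out of the total), but so had 56.2% of the 12259 genes (47.7% of those with a symbol under TMM scaling, and 32.5% with that smaller total). The median rho was -0.08 over those genes and -0.55 over the 6. These values moved with the scale. With mitochondrially encoded genes and Ucp1 left out of the total, rho was -0.12 for Aqp7, 0 for Gpd1l and -0.30 for Pck1, while it was -0.80 for Gpd1, -0.70 for Gpd2 and -0.47 for Gk. With TMM scaling, rho was -0.77 for Gpd1, -0.68 for Gpd2, -0.55 for Pck1, -0.52 for Gk, -0.23 for Aqp7 and -0.05 for Gpd1l. Under these 3 scales rho stayed at or below -0.68 for Gpd1 and Gpd2, and it came to -0.23 or above for Aqp7 and Gpd1l under both alternatives. In CPM without the 2 libraries farthest from the median Ucp1 level, it was -0.50 for Gpd1 and -0.64 for Gpd2. Whether the guide, the animal or the tissue sample lies behind these orders cannot be told apart here.

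**Figure D4:**
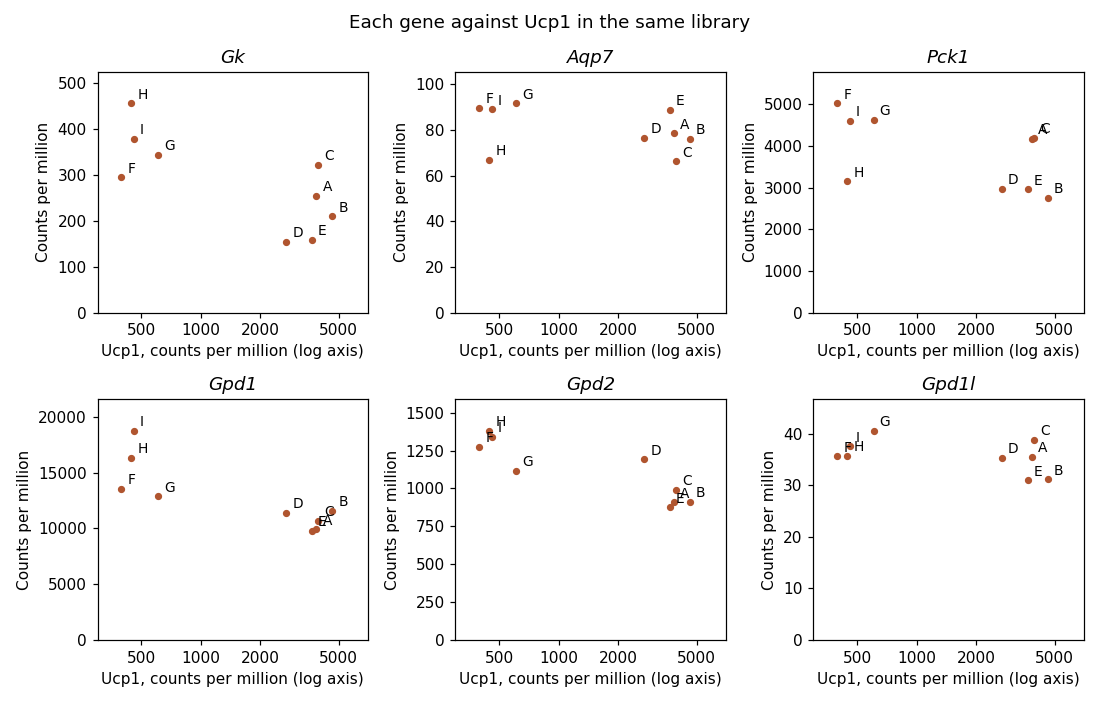
Level of each gene (CPM, linear axis from 0) against Ucp1 in the same library (CPM, log axis), with each point labelled by its library. Ucp1 leaves a wide empty stretch between 606 and 2704 CPM in every panel, and the Gpd1 values range from 9793 to 18792 CPM.

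Of the other glycerol kinases and glycerol channels, the kinase genes Gk2 and Gykl1 and the channel Aqp3 had 0 counts, and Aqp9, the liver's glycerol channel, reached at most 0.453 CPM. A count of 0 allows up to 3 counts in a library. Gk5, a kinase relative, stood at a median of 5.30 CPM and Aqp11, an intracellular aquaporin, at 3.24 CPM. In CPM the rho with Ucp1 was 0.07 for Gk5 and 0.32 for Aqp11. Thus 0 of these 2 were below 0, where 56.2% of all genes were. The medians of Gk and Aqp7 were 295 and 78.5 CPM.

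Among 8 other enzymes of glyceroneogenesis and glycerol phosphate use, Pcx, the pyruvate carboxylase that supplies Pck1 with oxaloacetate, was steady at 788 to 983 CPM. Pck2, the mitochondrial counterpart of Pck1, was low at a median of 14.6 CPM and ranged 3.01-fold. Pdk4, the kinase that blocks pyruvate oxidation, ran from 613 CPM in library H to 2438 CPM in library F, a 3.97-fold range, and library F was also the highest for Pck1. Gpam, the mitochondrial acyltransferase that begins triglyceride synthesis from glycerol 3-phosphate, ranged only 1.22-fold around 661 CPM, and Gpat4, its counterpart in the endoplasmic reticulum, 1.57-fold around 431 CPM, while Gpat3 was low at a median of 9.10 CPM and ranged 5.71-fold. Pgp, which can remove the phosphate of glycerol 3-phosphate, had a median of 61.8 CPM, and Tpi1, which interconverts the triose phosphates, one of 453 CPM. In CPM the rho with Ucp1 was below 0 for 8 of 8, with a median of -0.38 and the lowest, -0.72, for Pck2, where 56.2% of all genes were below 0. It was below 0 for 8 of 8 under TMM scaling too, where 47.7% of all genes with a symbol were below 0. With mitochondrially encoded genes and Ucp1 left out of the total, it was below 0 for 4 of 8, where 32.5% of those genes were.

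The 4 lipases of triglyceride breakdown looked at were all abundant. Pnpla2, which starts triglyceride breakdown, had a median of 4339 CPM, Lipe, the hormone-sensitive lipase, 1481 CPM, Mgll, which frees glycerol from monoglyceride, 1205 CPM, and Lpl, the lipoprotein lipase, 4063 CPM. Lpl alone of these 4 reached a 2-fold range (2.04-fold), as did 32.3% of all genes. In CPM rho with Ucp1 was below 0 for 3 of 4, with a median of -0.28, where 56.2% of all genes were below 0. With mitochondrially encoded genes and Ucp1 left out of the total, it was below 0 for 2 of 4. Of all genes with a symbol, 32.5% were below 0 under that total.

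The malate-aspartate shuttle is the other main route for cytosolic NADH into mitochondria. Its dehydrogenases Mdh1 and Mdh2 stood at medians of 514 and 1073 CPM, and its oxoglutarate carrier Slc25a11 at 128 CPM. Its transaminases were low, with Got1 at 39.5 and Got2 at 41.3 CPM, and so were its aspartate-glutamate carriers, with Slc25a12 at a median of 7.09 CPM and Slc25a13 at no more than 0.538 CPM. Of the 6 genes of this list with a mean of at least 1 CPM, 3 had a rho with Ucp1 below 0 in CPM and 3 above it. The median was -0.04, and 56.2% of all genes were below 0. Got1 was the lowest at -0.65 and Slc25a11 the highest of those 6 at 0.55. With mitochondrially encoded genes and Ucp1 left out of the total, 2 of the 6 were below 0. Of all genes with a symbol, 32.5% were below 0 under that total.

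**Figure D5:**
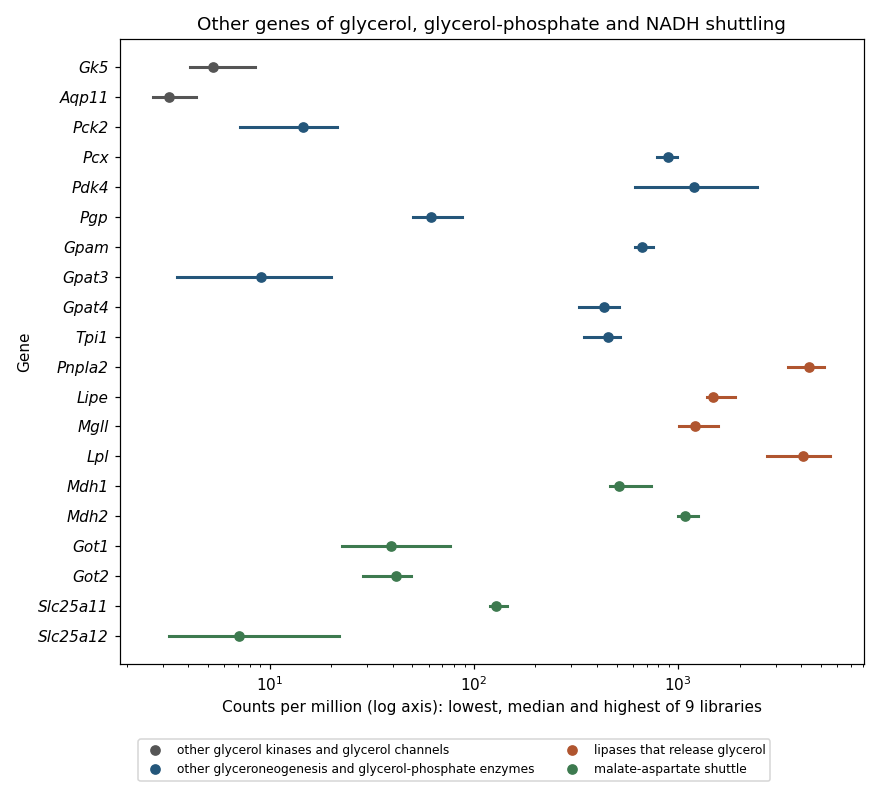
Lowest, median (point) and highest CPM over 9 libraries (log axis) for the other genes of glycerol, glycerol-phosphate and NADH handling with counts in every library. Pnpla2 and Lpl have medians of 4339 and 4063 CPM, while Slc25a12, Gk5 and Aqp11 lie below 10 CPM at the median.

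The genes most like each of the 6 were sought by Pearson r of log2(CPM + 1) over the 9 libraries among 9225 other genes with a mean of at least 5 CPM. With so many genes and 9 libraries, high values are found for any gene, and the lists are a description. For Gpd2 they were Elovl6, a fatty acid elongase (r 0.99, median 1210 CPM), Deptor, an inhibitor of mTOR (0.98), and Trim44 (0.98). For Gpd1 they were Ankrd40 (0.99), Mecr, the last enzyme of mitochondrial fatty acid synthesis (0.97), and Letmd1, a mitochondrial protein needed for brown fat heat production in mice (0.97, median 741 CPM). For Gk they were Aig1, a hydrolase of fatty acid esters of hydroxy fatty acids (0.98), Osbpl9, an oxysterol-binding protein relative (0.98), and Cebpz (0.98).

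For Pck1 the closest were Usp19, a deubiquitinase (0.97), Tollip (0.96) and Wdr73 (0.96). For Gpd1l they included Cmtm4 (0.97) and Vkorc1l1, a relative of the vitamin K epoxide reductase (0.94). Aqp7 had the weakest best match, with Bak1, a promoter of cell death at mitochondria, at 0.95, followed by Prmt2, an arginine methyltransferase (0.94), and Mvb12b (0.94). None of these genes was in the pathway lists above, and Gpd1 and Gpd2, although close to each other, shared none of their 3 closest genes.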

How the data were processed

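Brown fat RNA of 9 samples was sequenced. The deposited table holds raw, whole-number counts per Ensembl gene, and the submitters' processing notes name FastQC, STAR, DESeq2 and the build GRCm39, without versions or roles. No source used here gives the annotation release, counting mode or strand setting. The column names were matched to the tissue in the labels only, so 9 columns entered as 1 group and 0 were left unused. The labels do not say that the samples are separate animals.

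Symbols were taken from a GENCODE M21 name table, which matched 52083 of 55416 identifiers. The unmatched held 0.120% to 0.398% of counts. Counts were divided by the column sum (CPM), with no filter for the members and a mean of at least 1 CPM for the background of all genes. Spearman rho and Pearson r on log2(CPM + 1) were computed in Python 3.11.15 with numpy 2.4.6 and pandas 2.3.3, and the correlation code was tested on simulated data. Exact Poisson intervals (95%, scipy 1.17.1) cover counting error only. An exact permutation p for the relation with Ucp1 had been planned unless the largest gap between neighbouring log2 Ucp1 levels exceeded 0.5 of their range. It was 0.609 of the range, and no p was computed. Alternatives were TMM factors (edgeR 4.0.16), DESeq2 1.42.0 size factors, a total without mitochondrially encoded genes and Ucp1, and leaving out each library. For rho with Ucp1, the 2 libraries farthest from the median Ucp1 level were also left out together.

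The genes and lists were chosen with earlier results of these data known. Named genes are the 6 members, Ucp1, the pathway lists and the 3 genes most like each member. Gene coordinates and exon lengths are from GRCm38, not the build of the counts. One gene of the last kind is not reported here.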

Additional observations from a re-analysis of the deposited data

Results flagged for a closer look

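In 31 sets of 9 values (the 6 genes, Ucp1, the 4 ratios and the pathway genes above 1 CPM on average), 3 had 1 library whose gap to the nearest other exceeded Dixon's 95% critical value for 9 samples. Chance gives about 1 in 20. The ratio of Gk to Pck1 was 0.145 in library H, with the next library at 0.0822. This gap was 0.673 of the range. Slc25a11, the oxoglutarate carrier, was 144 CPM in library B, with the next at 130.3 CPM. Slc25a12, an aspartate-glutamate carrier that is abundant in skeletal muscle, was 21.8 CPM in library E, with the next at 11.9 CPM. Library E also had the highest sum of muscle markers, 4316 CPM, whose part in this value was not tested.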

How the results depend on the processing

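Of 477 recomputed values, 454 stayed within the tolerance: 1 SD over the libraries for levels and ratios, 0.354 (the inverse square root of 8) for a correlation, and 1.5-fold for ranges and counts. This count is no measure of robustness. Most of the values leave out 1 library, and a range then changes only if an end library is left out. The tolerance is also wide: a move of rho with Ucp1 from -0.33 to 0 for Gpd1l stayed within it. Leaving mitochondrially encoded genes and Ucp1 out of the total raised every median by construction, to 398 CPM for Gk, 115 for Aqp7, 5928 for Pck1, 17145 for Gpd1, 1520 for Gpd2 and 48.3 for Gpd1l. It also took the rho of Aqp7 with Ucp1 to -0.12. The rank correlation with Ucp1 stayed below 0 in 77 of 78 recomputed values, and was 0 for Gpd1l under that total. Leaving out each library moved rho with Ucp1 between -0.83 and -0.71 for Gpd2, -0.81 and -0.57 for Gpd1, -0.76 and -0.43 for Pck1, -0.64 and -0.38 for Gk, -0.83 and -0.33 for Aqp7, and -0.64 and -0.12 for Gpd1l. Without the 2 libraries farthest from the median Ucp1 level, rho was -0.64 for Gpd2 and -0.50 for Gpd1. In the same setting it was -0.64 for Pck1, -0.39 for Gk, -0.82 for Aqp7 and -0.36 for Gpd1l. The share of all genes with rho below 0 was 47.7% under TMM scaling, 50.1% with no filter on low counts and 32.5% with the smaller total. Between members, rho of Gk with Aqp7 was -0.37 under TMM scaling and 0.43 without library H, and Aqp7 with Gpd1l was -0.21 without library G. The cause was not tested. The ranges and the share of all genes with mitochondrially encoded genes and Ucp1 left out, and the gene lists under other scalings, were chosen after seeing the data. The planned counts of genes past a threshold for correlation with Ucp1 were not run, since no p was computed. No paired analysis was possible because neither a replicate number nor a guide is known for any library. Depth limits Gpd1l most, with 479 to 699 counts a library.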

Other observations

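The Ucp1 level fell into separate clusters over the 9 libraries: 3848, 4620, 3937, 2704 and 3652 CPM in libraries A to E, and 396, 606, 445 and 459 CPM in libraries F to I. The gap between 606 and 2704 CPM was 0.609 of the whole range on the log2(CPM + 1) scale. No library was given a guide from these values.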
